A study of Homo sapiens with 9 samples.

Results

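Laminin chains are the subunits of the laminins, the cross-shaped glycoproteins that form the first polymer of a basement membrane. The genes followed here were LAMA1, LAMA3, LAMA4, LAMA5, LAMB1, LAMB2, LAMB3 and LAMC1, taken by name from a table of read counts per gene and a table of FPKM (reads scaled to gene length and library total). Of these 8 genes, 7 had a row among the 19257 genes of the tables, and 6 passed the filter on low counts that left 12574 genes tested. LAMA1 did not pass that filter, and LAMA4 was not analysed here.

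Each laminin is a trimer of 1 alpha, 1 beta and 1 gamma chain, joined along a coiled coil inside the cell before secretion, and is named by its chain numbers: laminin-332 holds LAMA3 and LAMB3, laminin-511 holds LAMA5, LAMB1 and LAMC1, and laminin-521 holds LAMA5, LAMB2 and LAMC1. The end of the alpha chain binds integrins and dystroglycan on the cell surface, and the short arms join laminins to each other and, through nidogen, to collagen IV. In the lung, laminins with the LAMA5 chain are part of the epithelial basement membrane, and laminin-332 anchors epithelial cells through hemidesmosomes.

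The cells were A549, a human lung adenocarcinoma line, in 3 groups of 3 RNA-seq libraries. NC cells received the empty Lenti-CRISPR-V2 plasmid, a vector that carries Cas9 and a guide site, and their genotype label is WT. OGT_KO cells received the same plasmid aimed at OGT, the enzyme that attaches O-GlcNAc to nuclear and cytosolic proteins, and TR11B_KO cells received it aimed at TR11B, taken here as TNFRSF11B, which encodes the decoy receptor osteoprotegerin. The titles call the libraries biological replicates, yet no label ties them to separate cultures; the p-values therefore reflect only how much these samples vary, possibly for technical reasons. Guides and clones are not stated in the sources used here, and each knockout carries a single construct name in the tables, which means that the effect of a guide or clone and that of the targeted gene cannot be told apart.

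Library totals ranged from 38327508 to 42245970 counts. Replicate 2 of TR11B_KO stood apart, with a TMM scaling factor of 0.784 against 0.951 to 1.159 in the other libraries, so the called TR11B_KO results are also given without it. OGT was counted at 1239, 1143 and 967 reads in the NC libraries, 927, 1255 and 960 in those of OGT_KO, and 716, 356 and 484 in those of TR11B_KO. OGT mRNA did not differ detectably between OGT_KO and NC (log2 fold change -0.17 ± 0.21, SE, edgeR adjusted p = 0.607) and was lower in TR11B_KO (-0.99 ± 0.21, adjusted p = 0.00393, and -0.85 without replicate 2 of TR11B_KO). Counts per gene do not show whether a reading frame was cut, so every direction below belongs to the libraries labelled OGT_KO or TR11B_KO. TNFRSF11B was not tested because it was near 0: the NC libraries had 13, 15 and 3 reads, those of OGT_KO 1, 0 and 0, and those of TR11B_KO 3, 1 and 0. The 6 epithelial markers, mostly the keratins KRT7, KRT8 and KRT18, summed to 20002 to 22562 CPM (reads scaled to library size) in NC, 11462 to 14556 in OGT_KO and 16354 to 25768 in TR11B_KO. CDH1 was at 0 in every library, and EPCAM had at most 2 reads. The keratins did not move together in OGT_KO. Mean KRT8 and KRT18 were 5777 and 3240 CPM against 11460 and 6161 in NC, whereas KRT7 was higher, at 4359 against 3300. The part of these markers in the laminin differences was not tested. The tables held 2 of 6 alveolar type 2 markers, 3 of 6 fibroblast, 4 of 5 endothelial and 2 of 5 immune markers, whose sums reached at most 0.357, 0.871, 0.485 and 6.50 CPM. In such bulk samples, fewer cells of a type and less RNA per cell cannot be told apart.

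Promoter sequence is shown for LAMA5, LAMB3 and LAMC1, the main alpha chain and a beta and a gamma chain that differed in their values in the knockouts, as the 250 bases before a RefSeq start site in GRCh38.p14, read 5′ to 3′ on the gene's own strand. Capitals mark matches on either strand to 4 motifs: TGANTCA (AP-1), GGGCGG (GC box), CAGGTG (E-box) and GGAATG (TEAD).
LAMA5, chr20:62367313-62367562, minus strand: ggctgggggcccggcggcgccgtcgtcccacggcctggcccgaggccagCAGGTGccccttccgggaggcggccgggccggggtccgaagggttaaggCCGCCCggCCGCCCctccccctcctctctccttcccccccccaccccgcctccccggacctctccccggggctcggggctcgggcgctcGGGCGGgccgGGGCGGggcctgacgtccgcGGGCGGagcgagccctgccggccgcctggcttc
LAMB3, chr1:209651375-209651624, minus strand: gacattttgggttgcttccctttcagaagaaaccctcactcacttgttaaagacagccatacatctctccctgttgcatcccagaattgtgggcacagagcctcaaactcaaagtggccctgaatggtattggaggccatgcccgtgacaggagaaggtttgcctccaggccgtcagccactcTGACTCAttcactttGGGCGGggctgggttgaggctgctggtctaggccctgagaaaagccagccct
LAMC1, chr1:183023170-183023419, plus strand: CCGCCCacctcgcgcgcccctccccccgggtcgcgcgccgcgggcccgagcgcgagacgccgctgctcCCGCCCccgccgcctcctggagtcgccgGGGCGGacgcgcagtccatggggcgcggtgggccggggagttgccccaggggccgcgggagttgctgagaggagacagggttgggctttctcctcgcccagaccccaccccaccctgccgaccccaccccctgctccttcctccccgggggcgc

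The LAMA5 window held 5 GC boxes and 1 E-box and was 82.8% G and C. In the LAMC1 window, 79.6% G and C, 3 GC boxes were found. LAMB3 has 3 RefSeq starts, and the window shown, before the most downstream of them, lies in an intron of longer LAMB3 transcripts; it was 54.0% G and C and held 1 AP-1 motif, TGACTCA, at positions -67 to -61 and 1 GC box at -52 to -47, counted from the base before the start as -1. The windows of the other 2 LAMB3 starts overlap LAMB3 exons and each other and are not shown. They held 0 AP-1 motifs and the same 1 GC box, and that of the most upstream start also held 1 E-box. Of 35116 RefSeq windows of 250 bases, 42.6% held a GC box, 17.5% the E-box, 11.9% the TEAD motif and 6.57% the AP-1 motif. The windows of LAMB1, LAMB2 and LAMA3, which overlap annotated exons and are not shown, held 4, 1 and 1 GC boxes. Among those of LAMB1, the boxes at -88 to -83 and -84 to -79 overlap. The LAMA3 window also held 2 AP-1 motifs and 1 E-box that overlaps the second of them. No TEAD motif occurred in any of these windows. A match describes letters in a window and is not evidence of a bound site.

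In NC, LAMB2 and LAMA5 were the most abundant laminin mRNAs per length. By FPKM, LAMB2 stood at 38.8 ± 1.36 (SD, n = 3), LAMA5 at 19.2 ± 0.196, LAMB3 at 7.88 ± 0.230, LAMC1 at 7.34 ± 1.26, LAMB1 at 1.59 ± 0.0371 and LAMA3 at 0.330 ± 0.0243. LAMB3 and LAMC1 overlapped between libraries, and the other neighbours in this order did not. LAMA1 came last, at 0.00701 ± 0.00785.

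In OGT_KO the order changed. LAMA5 at 39.4 ± 3.85 FPKM and LAMB3 at 35.1 ± 0.840 overlapped at the top, followed by LAMB2 at 26.7 ± 0.690. LAMB1 at 6.49 ± 0.850 and LAMC1 at 5.68 ± 0.843 overlapped, and LAMA3 at 0.361 ± 0.0832 lay below them. In TR11B_KO, LAMB2 stood first at 50.3 ± 10.7, LAMB3 at 7.97 ± 1.01 overlapped with LAMA5 at 6.55 ± 1.86, and LAMA5 overlapped with LAMC1 at 3.98 ± 1.30. LAMB1 at 0.774 ± 0.283 and LAMA3 at 0.171 ± 0.0255 lay below these and did not overlap.

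**Figure D1:**
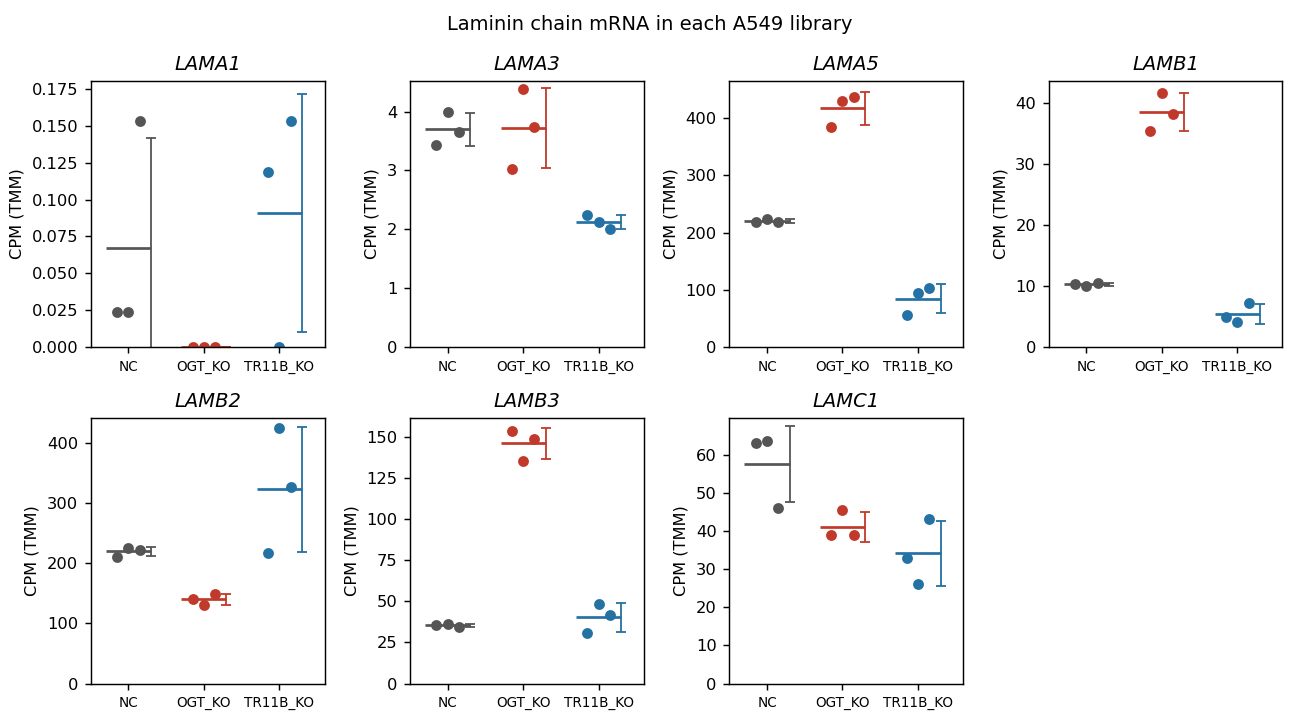
Level of 7 laminin chains in each library, in CPM after TMM scaling (linear axes from 0); points are libraries, horizontal lines are means and vertical bars are SD over 3 libraries, with the bar of LAMA1 in NC reaching below 0. LAMB3 in OGT_KO lay between 135 and 154 CPM, above every NC and TR11B_KO library.

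Against NC, OGT_KO held higher LAMA5, LAMB1 and LAMB3 mRNA and lower LAMB2 mRNA: 4 of the 6 tested chains passed an edgeR adjusted p of 0.05, 3 higher and 1 lower, where 18.3% of all tested genes passed, 8.26% higher and 10.1% lower. The median log2 fold change of the 6 chains was 0.46, against 0.03 for all genes, and the median size without sign was 0.79, against 0.44. The groups did not overlap for 5 of 6 chains, where 49.8% of all genes did not overlap. The share of all genes called depended on the libraries fitted. In a fit of these 2 groups alone it was larger, at 5095 of 12195 genes, with 3 chains called higher and 2 lower. Without TR11B_KO replicate 2 it was also larger, at 4536 of 12827 genes, again with 3 chains higher and 2 lower. Against NC, TR11B_KO held lower LAMA3, LAMA5, LAMB1 and LAMC1 mRNA: 4 of 6 chains were called, all lower, where 27.6% of all genes were called and 14.3% were called lower. Their median was -0.78, against -0.01 for all genes, and the groups did not overlap for 4 of 6 chains, where 40.9% of all genes did not. Both comparisons use the same NC libraries.

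Between the knockouts, OGT_KO was higher than TR11B_KO in LAMA3, LAMA5, LAMB1 and LAMB3 and lower in LAMB2: 5 of 6 chains were called, where 33.2% of all genes were called, 16.7% higher and 16.5% lower in OGT_KO. The median was 1.33, against 0.06 for all genes, and 5 of 6 chains did not overlap, where 44.9% of all genes did not. With library totals in place of TMM scaling, the median of all genes went from 0.03, -0.01 and 0.06 to 0.15, -0.15 and 0.31 in these 3 comparisons, and the share of called genes that were higher went from 45.1%, 48.0% and 50.4% to 60.6%, 36.8% and 70.9%. The tested laminin genes run from 4532 bases (LAMB3) to 11573 (LAMA5), and fold changes ran with gene length, only weakly in OGT_KO against NC. The Spearman correlation across genes, which are not independent replicates, was 0.066 for OGT_KO against NC, -0.313 for TR11B_KO against NC and 0.333 between the knockouts. The 2515 longest tested genes, of 7154 bases or more, had medians of 0.21, -0.31 and 0.50. LAMA3, LAMA5 and LAMC1 are among them, and LAMB1, LAMB2 and LAMB3 are shorter. A second fit with each library's trend with gene length removed (below, the length-adjusted fit) is therefore given beside the chains, and the part of gene length in the differences was otherwise not tested. In that fit, 3 chains were called higher and 1 lower in OGT_KO against NC, where 2292 of 12574 genes were called. In TR11B_KO against NC, 1 was higher and 2 lower (2790 genes called), and between the knockouts 3 were higher and 1 lower (3522 genes called).

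**Figure D2:**
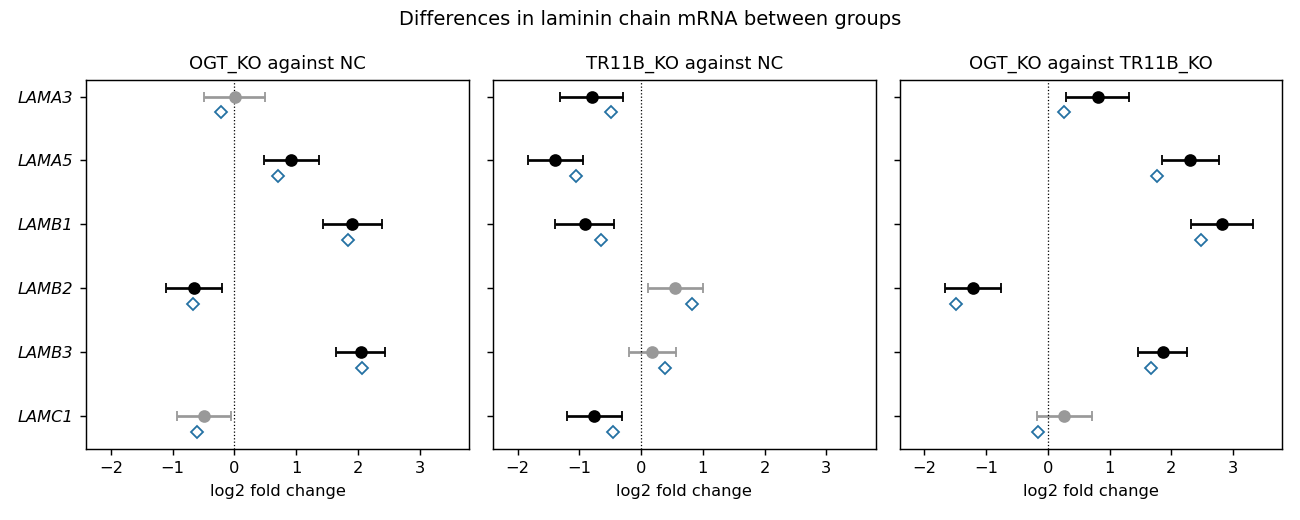
Log2 fold change of each chain in the 3 comparisons (horizontal axis); circles with bars are the edgeR estimates and their 95% intervals, black where the adjusted p over all tested genes was under 0.05 and grey otherwise, and open diamonds are the length-adjusted estimates. LAMA5 lay above 0 in OGT_KO and below 0 in TR11B_KO, and LAMB3 lay at 2.04 in OGT_KO against NC and at 0.19 in TR11B_KO against NC.

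LAMA5 (20:62309065-62367312), the alpha chain of laminin-511 and laminin-521 and the one with most of the alpha mRNA here, moved in opposite directions in the knockouts. The NC libraries had 218, 223 and 218 CPM, the OGT_KO libraries 384, 430 and 437, and the TR11B_KO libraries 55.3, 93.9 and 103. Every OGT_KO library was above, and every TR11B_KO library below, every NC library. LAMA5 was 1.90-fold higher in OGT_KO than in NC (log2 fold change 0.92 ± 0.21, SE, edgeR adjusted p = 0.00785) and 2.61-fold lower in TR11B_KO (-1.39 ± 0.21, adjusted p = 0.000561). Compared directly, the knockouts differed by 2.31 ± 0.22 (adjusted p = 5.47e-06). In the length-adjusted fit the differences were smaller, at 0.70, -1.06 and 1.76 (adjusted p = 0.0419, 0.00489 and 9.61e-05). With replicate 2 of TR11B_KO left out, the last 2 values were -1.43 and 2.36. An antisense gene, LAMA5-AS1, had at most 28 reads per library where LAMA5 had 2325 to 19093; the sources used here do not say whether counting kept the strand, so reads of the pair cannot be told apart.

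LAMA3 (18:23689453-23955066), the alpha chain of laminin-332, was low throughout, with 66 to 195 reads per library. The NC libraries had 3.44, 4.00 and 3.65 CPM, the OGT_KO libraries 3.02, 4.39 and 3.74, and the TR11B_KO libraries 2.24, 2.13 and 2.00. NC and OGT_KO overlapped, and all TR11B_KO libraries were lower than both. No difference between OGT_KO and NC was detected (0.01 ± 0.23, 95% interval -0.49 to 0.50, edgeR adjusted p = 0.987), and LAMA3 was lower in TR11B_KO than in NC (-0.80 ± 0.24, adjusted p = 0.0227) and than in OGT_KO (the OGT_KO excess was 0.81 ± 0.24, adjusted p = 0.0179). Neither call held in the length-adjusted fit (-0.48, adjusted p = 0.128, and 0.26, adjusted p = 0.399). The call against NC was also lost without NC replicate 1 (adjusted p = 0.0580), NC replicate 2 (0.0918) or TR11B_KO replicate 3 (0.0641), and that against OGT_KO without OGT_KO replicate 2 (0.0846), OGT_KO replicate 3 (0.0504) or TR11B_KO replicate 3 (0.0548). Without TR11B_KO replicate 2 the differences were -0.77 and 0.78 (adjusted p = 0.0269 and 0.0208).

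LAMA1 (18:6941742-7117797), the alpha chain of laminin-111, best known from embryonic basement membranes, had 1, 1 and 6 reads in NC, 0 in each OGT_KO library, and 5, 0 and 6 in TR11B_KO. A count of 0 allows up to 3 reads, or 0.0675 to 0.0967 CPM in the libraries at 0, which covers counting error only. These reads are too few for a comparison.

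LAMB1 (7:107923799-108003161), the beta chain of laminin-111 and laminin-511, followed the directions of LAMA5. The NC libraries had 10.3, 10.1 and 10.5 CPM, the OGT_KO libraries 35.5, 41.8 and 38.3, and the TR11B_KO libraries 4.93, 4.13 and 7.27. The 3 groups did not overlap, with OGT_KO highest and TR11B_KO lowest. LAMB1 was 3.75-fold higher in OGT_KO than in NC (1.91 ± 0.22, edgeR adjusted p = 8.98e-05) and 1.88-fold lower in TR11B_KO (-0.91 ± 0.22, adjusted p = 0.00847). Between the knockouts it differed 7.06-fold (2.82 ± 0.23, adjusted p = 1.77e-06), more than 98.0% of the tested genes by size of fold change. The length-adjusted values were 1.83, -0.65 and 2.48, and those without TR11B_KO replicate 2 were -0.72 against NC and 2.63 between the knockouts, all with an adjusted p under 0.05.

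LAMB2 (3:49121114-49133050), the beta chain of laminin-521, was lower in OGT_KO than in both other groups. NC libraries had 210, 226 and 222 CPM, OGT_KO 141, 130 and 149, and TR11B_KO 217, 425 and 326. OGT_KO was below every other library, and replicate 1 of TR11B_KO lay within the NC range. The difference from NC was -0.65 ± 0.21 in OGT_KO (edgeR adjusted p = 0.0447) and 0.56 ± 0.21 in TR11B_KO (adjusted p = 0.0615), and OGT_KO was 2.31-fold lower than TR11B_KO (-1.21 ± 0.21, adjusted p = 0.000842). The call in OGT_KO was lost when any NC or OGT_KO library, or TR11B_KO replicate 3, was left out (adjusted p up to 0.153). It was also lost in the length-adjusted fit (-0.67, adjusted p = 0.0585). Without TR11B_KO replicate 2, a library outside this comparison, the call was kept (-0.65, adjusted p = 0.000392). It held in 9 of 21 alternatives, with the direction kept in all. In TR11B_KO, LAMB2 was higher past the threshold in 6 of 21 alternatives: without replicate 1 (0.84, adjusted p = 0.00119), in the length-adjusted fit with all libraries (0.82, 0.0225) and without replicate 2 (0.54, 0.0108), with DESeq2 (0.63, 0.0321), with no filter (0.58, 0.0192) and with a filter at 1 CPM (0.62, 0.0470). Without replicate 2 and without length adjustment it was 0.34 (adjusted p = 0.0777). The difference between the knockouts was -1.49 in the length-adjusted fit and -0.99 without replicate 2 of TR11B_KO, with adjusted p = 0.00045 and 3.21e-06.

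LAMB3 (1:209614870-209652425), the beta chain found in laminin-332, rose in OGT_KO. The NC libraries had 35.8, 36.2 and 34.1 CPM, the OGT_KO libraries 154, 135 and 149, and the TR11B_KO libraries 30.8, 48.4 and 41.5. All OGT_KO libraries were above all others, and TR11B_KO spread to both sides of NC. The increase against NC was 4.12-fold (2.04 ± 0.19, edgeR adjusted p = 1.24e-05), more than 97.1% of tested genes by size, and that against TR11B_KO was 3.63-fold (1.86 ± 0.19, adjusted p = 9.44e-06). The difference of TR11B_KO from NC was 0.19 ± 0.18 (95% interval -0.20 to 0.57, adjusted p = 0.474), which passed the threshold without replicate 1 of TR11B_KO (0.41, adjusted p = 0.0478) and was 0.07 without replicate 2. The length-adjusted values in OGT_KO were 2.07 against NC and 1.68 against TR11B_KO, and the latter was 1.98 without replicate 2 of TR11B_KO.

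LAMC1 (1:183023420-183145592), the gamma chain shared by laminin-111, laminin-511 and laminin-521, was lower in TR11B_KO than in NC. The NC libraries had 63.1, 63.6 and 46.2 CPM, the OGT_KO libraries 38.8, 45.5 and 38.9, and the TR11B_KO libraries 33.1, 26.2 and 43.0. Both knockouts lay below every NC library and overlapped with each other. In TR11B_KO the difference from NC was -0.76 ± 0.21 (edgeR adjusted p = 0.0159), in OGT_KO it was -0.49 ± 0.21 (95% interval -0.93 to -0.05, adjusted p = 0.115), and OGT_KO exceeded TR11B_KO by 0.27 ± 0.21 (adjusted p = 0.342), a sign that turned in the length-adjusted fit (-0.15). The TR11B_KO call was lost in the length-adjusted fit (-0.46, adjusted p = 0.102), without NC replicate 1 (0.0741) and without NC replicate 2 (0.0763), and stood at -0.56 without TR11B_KO replicate 2 (0.00859); it held in 15 of 21 alternatives. The OGT_KO difference passed the threshold in 4 of 21 alternatives. These were the length-adjusted fit with all libraries (-0.61, adjusted p = 0.0417) and without TR11B_KO replicate 2 (-0.61, 0.00181), the loss of that replicate alone (-0.48, 0.00997) and a fit of the 2 groups compared (-0.48, 0.00186).

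Of 2 other laminin chains in the tables, both too low to test, LAMA2 had 1 to 12 reads per library and LAMB4 had 0 in all 9 libraries.

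The makeup of the beta chains by FPKM changed most in OGT_KO. LAMB2 held 79.5%, 80.6% and 81.0% of the summed beta FPKM in the NC libraries, 38.6%, 38.5% and 40.3% in OGT_KO, against 83.4%, 86.8% and 84.7% in TR11B_KO. LAMB3 held 17.1%, 16.3% and 15.7% in NC, 52.9%, 50.6% and 50.6% in OGT_KO, against 14.9%, 12.4% and 13.6% in TR11B_KO. LAMB1 went from 3.30% ± 0.136 (SD, n = 3) in NC to 9.50% ± 1.22 in OGT_KO and 1.35% ± 0.532 in TR11B_KO. For all 3 beta chains the groups did not overlap in any of the 3 comparisons, and the mean difference between OGT_KO and NC was -41.3 percentage points for LAMB2 and 35.1 for LAMB3. Over 15 comparisons of alpha and beta shares, each two-sided exact permutation test gave p = 0.1 and an adjusted p of 0.1, the smallest that 3 libraries against 3 allow.

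LAMA5 held 98.2% ± 0.0932 of the summed alpha FPKM in NC, 99.1% ± 0.130 in OGT_KO and 97.1% ± 1.18 in TR11B_KO, and LAMA3 nearly all of the rest, at 1.69%, 0.899% and 2.72%. The alpha sum was 19.5 ± 0.211 FPKM in NC, 39.8 ± 3.94 in OGT_KO and 6.74 ± 1.85 in TR11B_KO. The beta sum was 48.3 ± 1.29 FPKM in NC, 68.3 ± 0.144 in OGT_KO and 59.0 ± 11.6 in TR11B_KO. The alpha and beta sums were higher in OGT_KO than in NC, with no overlap between the libraries in either case. FPKM carries no TMM scaling, and shares within a library do not depend on scaling.

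**Figure D3:**
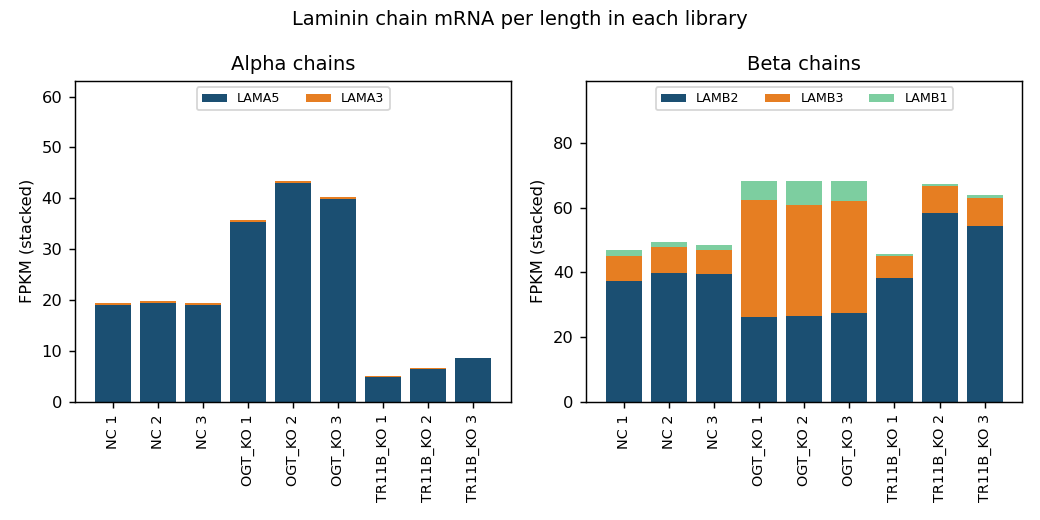
Stacked FPKM of alpha chains (LAMA5 and LAMA3) and beta chains (LAMB2, LAMB3 and LAMB1) in each of the 9 libraries, with bars from 0. LAMB3 makes up 50.6% to 52.9% of the beta bar in OGT_KO and at most 17.1% elsewhere, and the alpha bars are tallest in OGT_KO and almost all LAMA5.

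For laminin-332, its alpha and beta chains are described. The FPKM ratio of LAMB3 to LAMA3 was 26.0, 22.6 and 23.3 in NC, 127, 77.1 and 99.4 in OGT_KO, against 34.4, 56.8 and 52.0 in TR11B_KO. The ratio was lowest in NC and highest in OGT_KO, with no overlap between groups. For laminin-511 the scarcest chain was LAMB1 in NC (1.59) and TR11B_KO (0.774), and LAMC1 in OGT_KO (5.68). The ranges of this lowest chain were 1.55 to 1.63 in NC, 5.17 to 6.65 in OGT_KO and 0.498 to 1.06 in TR11B_KO, with no overlap. For laminin-521 LAMC1 was the scarcest in all groups, at 7.34, 5.68 and 3.98 FPKM. Laminin-411 needs LAMA4 and was not evaluated. These are mRNA levels per length, and neither chain protein nor assembled trimer was measured.

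**Figure D4:**
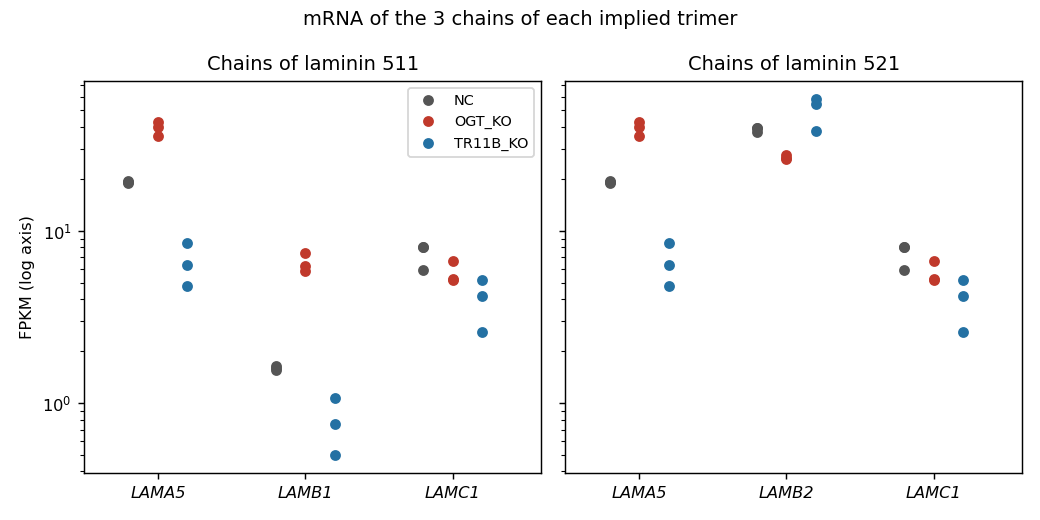
FPKM (log axis) of the 3 chains of laminin-511 and laminin-521, with 1 point per library and colours for NC, OGT_KO and TR11B_KO. In laminin-511, LAMA5 and LAMB1 are both highest in OGT_KO and lowest in TR11B_KO.

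Of 12 tested laminin receptor genes, 1 was higher and 1 lower in OGT_KO than in NC, 2 of 12 against a background of 18.3%, with a median of -0.09. ITGA2, an integrin alpha chain for collagen and laminin, was 0.430, 0.871 and 0.792 CPM in NC and 2.02, 2.34 and 1.09 in OGT_KO (1.38 ± 0.40, edgeR adjusted p = 0.0298), a call lost without any 1 of the NC libraries, or OGT_KO replicate 1 or 2 (adjusted p up to 0.135). SDC1, the heparan sulfate proteoglycan syndecan 1, fell by 0.55 on the log2 scale (adjusted p = 0.0332), a call that held in 11 of 21 alternatives. It was lost with library totals (-0.44, adjusted p = 0.117), with the replicate block (0.0770), on log2 FPKM in all 3 limma fits (up to 0.192), and without NC replicate 1 or 2 or any OGT_KO library (up to 0.141). Without TR11B_KO replicate 2, ITGA2 was at 1.38 and SDC1 at -0.55, both called.

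In TR11B_KO, 1 receptor gene was higher and 4 were lower than in NC, 5 of 12 against 27.6%, with a median of -0.49. BCAM, the Lutheran glycoprotein that binds the LAMA5 chain, rose from 6.76, 5.93 and 7.03 CPM in NC to 15.8, 26.2 and 23.2 in TR11B_KO (1.72 ± 0.23, edgeR adjusted p = 0.000286). DAG1, which encodes both dystroglycan subunits, fell from 158, 167 and 113 CPM to 49.9, 39.1 and 85.9 (-1.32 ± 0.26, adjusted p = 0.00231). The groups did not overlap for either gene. ITGA6, an integrin alpha chain of the laminin receptors, also fell (-0.85 ± 0.21, adjusted p = 0.00911). SDC1 (-0.59 ± 0.17, adjusted p = 0.0176) and ITGA3, the main laminin-binding integrin alpha chain by level here (-0.54 ± 0.19, adjusted p = 0.0436), were also lower, and were named after their values were seen. The SDC1 call was lost without NC replicate 1 (0.0829) or NC replicate 2 (0.0772) and in the length-adjusted fit (0.0525), and the ITGA3 call in 14 of 21 alternatives, including the loss of any library except TR11B_KO replicate 2. Without that replicate BCAM was at 1.60, DAG1 at -1.07, ITGA6 at -0.90, SDC1 at -0.44 and ITGA3 at -0.67, each with an adjusted p under 0.05.

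Between the knockouts, 4 receptor genes were higher and 1 lower in OGT_KO, 5 of 12 against 33.2%. DAG1 was higher in OGT_KO (1.25 ± 0.26, edgeR adjusted p = 0.00232), as were ITGB1, the common beta chain of many laminin-binding integrins (0.85 ± 0.19, adjusted p = 0.00425), ITGA2 (1.81 ± 0.42, adjusted p = 0.00492) and SDC2 (0.86 ± 0.27, adjusted p = 0.0250). BCAM was lower (-1.88 ± 0.23, adjusted p = 6.15e-05). The last 2 of the higher genes were named after their values were seen, and the SDC2 call was lost without any 1 OGT_KO library or TR11B_KO replicate 2 or 3 (adjusted p up to 0.0939). Without TR11B_KO replicate 2, DAG1 was at 1.00, ITGB1 at 0.93, ITGA2 at 1.91 and BCAM at -1.75, all called, and SDC2 at 0.58, not called.

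Among 10 tested basement membrane partners, HSPG2 and PXDN were lower and none was higher in OGT_KO than in NC (2 of 10 against 18.3%, median -0.24). HSPG2 encodes perlecan, a heparan sulfate proteoglycan that binds laminin, and was 32.2, 31.5 and 28.7 CPM in NC, 2.68, 3.15 and 4.31 in OGT_KO, against 27.5, 95.3 and 72.8 in TR11B_KO. It fell 9.11-fold in OGT_KO (-3.19 ± 0.37, edgeR adjusted p = 7.73e-05), with no overlap. PXDN, the peroxidase that crosslinks collagen IV, was under 1 CPM in all libraries (-2.38 ± 0.64, adjusted p = 0.0198), and its call was lost without NC replicate 1 or 2 or any OGT_KO library (adjusted p up to 0.106). Without TR11B_KO replicate 2 the PXDN call was kept (-2.37). COL4A1 and COL4A2, the chains of the commonest collagen IV, differed by -0.58 and -0.55 in OGT_KO (adjusted p = 0.102 and 0.0591).

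In TR11B_KO, 1 partner was higher and 4 were lower than in NC (5 of 10 against 27.6%, median -0.54). TINAGL1, a matrix protein that binds laminin and integrins, fell from 74.9, 71.1 and 80.0 CPM to 38.7, 23.9 and 33.5 (-1.23 ± 0.19, edgeR adjusted p = 0.0006), with no overlap. COL4A1 (-0.91 ± 0.24, adjusted p = 0.0119) and COL4A2 (-0.71 ± 0.19, adjusted p = 0.0139) were lower, but neither call held in the length-adjusted fit (0.0714 and 0.131), without NC replicate 1 (0.0571 and 0.0660) or without NC replicate 2 (0.0576 and 0.0735). PXDN (-2.29 ± 0.64, adjusted p = 0.0180) and HSPG2 (1.08 ± 0.33, adjusted p = 0.0272) were named after their values were seen. The PXDN call was lost without NC replicate 1 or 2 or TR11B_KO replicate 1 or 2 (adjusted p up to 0.0969). The HSPG2 call held in 10 of 21 alternatives. Among its losses were the fits without any 1 NC library or TR11B_KO replicate 2 or 3 (up to 0.129). Others were library totals (0.88, adjusted p = 0.0635) and log2 FPKM in all 3 limma fits (up to 0.190). Without replicate 2 of TR11B_KO, TINAGL1 was at -1.03, COL4A1 at -0.65 and COL4A2 at -0.69, all called, and PXDN at -2.01 and HSPG2 at 0.74, not called. Between the knockouts, HSPG2 was lower in OGT_KO (-4.27 ± 0.38, adjusted p = 3.96e-06) and TINAGL1 higher (1.34 ± 0.19, adjusted p = 0.000171), 2 of 10 against 33.2%, with a median of 0.24; without replicate 2 of TR11B_KO these were -3.93 and 1.15, both called.

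**Figure D5:**
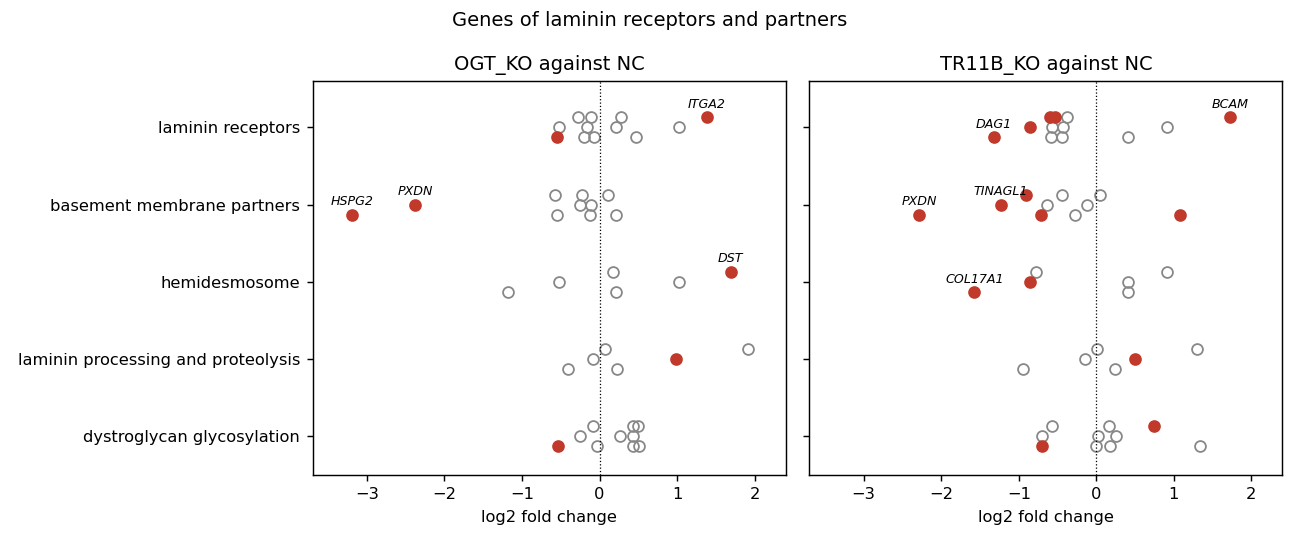
Log2 fold change against NC (horizontal axis) of each tested gene in 5 lists of laminin partners, for OGT_KO on the left and TR11B_KO on the right; filled red points had an edgeR adjusted p under 0.05 and open points did not, and the vertical offset within a list only separates points. HSPG2 lies at -3.19 in OGT_KO, and BCAM at 1.72 and DAG1 at -1.32 in TR11B_KO.

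Of 6 tested genes of the hemidesmosome, the junction that holds keratin filaments to laminin-332, 1 was called in OGT_KO, higher (against 18.3% of all genes, median 0.20), and 2 in TR11B_KO, both lower (against 27.6%, median -0.18), counts near those shares. DST, whose epithelial product BP230 links keratin to the junction, was 3.56, 5.13 and 2.25 CPM in NC, 10.4, 13.9 and 11.0 in OGT_KO, against 2.50, 1.23 and 2.64 in TR11B_KO. It was higher in OGT_KO than in NC (1.69 ± 0.32, edgeR adjusted p = 0.00305) and than in TR11B_KO (2.46 ± 0.34, adjusted p = 0.000138), the 1 called gene of 6 between the knockouts (against 33.2%, median 0.22), at 2.17 without replicate 2 of TR11B_KO. Counts per gene do not tell BP230 from the other DST products. ITGA6 and COL17A1, the transmembrane collagen of the junction, were the genes lower in TR11B_KO (COL17A1 -1.57 ± 0.42, adjusted p = 0.0135), the latter under 3 CPM in every library not called without NC replicate 1 (0.0509), and at -1.38 and called without TR11B_KO replicate 2.

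Among 6 tested genes of laminin processing and proteolysis, 1 was called in OGT_KO, higher (against 18.3% of all genes, median 0.15), 1 in TR11B_KO, higher (against 27.6%, median 0.13), and 2 between the knockouts, 1 in each direction (against 33.2%, median 0.34). These counts are near or below the shares of all genes. PLAU, the urokinase plasminogen activator, was 218, 219 and 225 CPM in NC and 465, 407 and 441 in OGT_KO (0.99 ± 0.15, edgeR adjusted p = 0.00075), and was also higher in OGT_KO than in TR11B_KO (0.75 ± 0.15, adjusted p = 0.00235, and 0.66 without replicate 2 of TR11B_KO). MMP14, a membrane metalloproteinase of the pericellular matrix, was higher in TR11B_KO than in NC (0.50 ± 0.16, adjusted p = 0.0335) and lower in OGT_KO than in TR11B_KO (-0.58 ± 0.16, adjusted p = 0.0141). Both MMP14 calls were lost with library totals (0.34, adjusted p = 0.0672, and -0.31, adjusted p = 0.0794) and on log2 FPKM in all 3 limma fits (up to 0.0754 and 0.0865), where the second value was -0.29 to -0.30. The first was also lost when any library except TR11B_KO replicate 1 or 2 was left out (adjusted p up to 0.125) and held in 8 of 21 alternatives. The second was also lost without OGT_KO replicate 2 (0.0629) or TR11B_KO replicate 3 (0.0521) and held in 15. Without replicate 2 of TR11B_KO they were 0.45 and -0.53, both called.

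Dystroglycan binds laminin through a sugar chain built by a dedicated set of enzymes. Of 10 tested, 1 was lower in OGT_KO than in NC (against 18.3% of all genes called, median 0.35), 1 was lower and 1 higher in TR11B_KO (against 27.6%, median 0.09), and 1 was lower in OGT_KO than in TR11B_KO (against 33.2%, median 0.26). All 3 counts are shares below those of all genes. POMGNT2, a glycosyltransferase of an early step, was lower in both knockouts than in NC (-0.53, adjusted p = 0.0336, and -0.70, adjusted p = 0.00618), in OGT_KO with the call lost when any NC or OGT_KO library was left out (up to 0.132) and held in 12 of 21 alternatives. B4GAT1 was higher in TR11B_KO (0.75 ± 0.18, adjusted p = 0.00728). Without replicate 2 of TR11B_KO, POMGNT2 was at -0.77 and B4GAT1 at 0.83 in that comparison. In OGT_KO against NC, POMGNT2 was then at -0.53 and called. POMGNT1 was lower in OGT_KO than in TR11B_KO (-0.51 ± 0.18, adjusted p = 0.0450), a call lost in 13 of 21 alternatives, including library totals (-0.23, adjusted p = 0.147) and without any NC or OGT_KO library or TR11B_KO replicate 3; it was -0.37 and called without TR11B_KO replicate 2.

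Across the 9 libraries, pairs of chains followed each other to different degrees (Pearson correlation of log2 CPM, given as a description because the libraries fall into 3 groups and share their scaling). LAMA5 and LAMB1 had the highest value, 0.93, and LAMB1 and LAMB2 the lowest, -0.89. LAMB2 was at -0.77 with LAMA5. Among 7020 genes of at least 2 log2 CPM, the courses most like LAMA5 were those of ANO6 (0.99) and L1CAM (0.99), and those most like LAMB1 were NPNT (0.99) and SLC39A6 (0.98). For LAMB2 they were MOGS (0.99) and BTBD2 (0.99), for LAMB3 ATP6V0E2 (1.00) and MFSD13A (0.99), and for LAMC1 RAI1 (0.99) and AP3D1 (0.99).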

How the data were processed

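RNA-seq of 9 A549 libraries was used, grouped by sample title. Per the labels' protocols, the VAHTS Universal V6 kit was used on TRIzol-extracted RNA. Per the submitters' processing notes, fastp, HISAT, HTSeq, R 3.2.0 and DESeq2 were used with GRCh38; the sources used here give neither their roles nor the strand setting. The authors deposited whole-number read counts per gene, without normalization. The FPKM values were also deposited, scaled by the authors to gene length and library total. Counts scaled to library total, divided by FPKM, gave a whole gene length, within 0.01 base, for 17919 of 17923 genes.

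Counts of all 9 libraries were fitted with edgeR 4.0.16 in R 4.3.3 (filterByExpr, TMM, quasi-likelihood test, robust), with 12574 genes tested and Benjamini-Hochberg adjusted p under 0.05 over all of them called. CPM values use TMM library sizes. The common biological coefficient of variation was 0.241. Each gene's spread was estimated once for all 3 groups, so the TR11B_KO libraries also enter the p-values of OGT_KO against NC. The procedure was run on simulated data with the same spread in every group and no trend with gene length. That run therefore does not bear on replicate 2 of TR11B_KO or on gene length. Shares and ratios of chains came from FPKM. Alternatives were DESeq2 1.42.0, limma 3.58.1 on log2(FPKM + 1) or log2(FPKM + 0.1), RLE factors or library totals, other filters (none, or at least 1 CPM in 3 libraries), 2-group fits, a replicate block, length adjustment (a lowess trend of each library's log2 CPM with gene length, as an offset) and each library left out. Intervals are 95%.

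The members and gene lists were chosen with earlier results of these data known. The targets and chains were always named; of each list and comparison, up to 3 called genes with the smallest adjusted p; and as most alike, the 2 genes with the highest correlation to each called chain of at least 2 log2 CPM. The lists were laminin receptors, basement membrane partners, hemidesmosome, laminin processing and proteolysis, dystroglycan glycosylation and other laminin chains. Some items of these lists are not reported here, and list counts are over the genes that remain.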

Additional observations from a re-analysis of the deposited data

How the results depend on the processing

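Each gene named in a comparison was recomputed under 21 alternatives, 1 of them (length adjustment with TR11B_KO replicate 2 left out too) chosen after seeing the data. LAMA5, LAMB1 and LAMB3 in OGT_KO against NC, LAMA5 and LAMB1 in TR11B_KO against NC, and LAMA5, LAMB1, LAMB2 and LAMB3 between the knockouts kept direction and call in all 21. Share differences of alpha and beta chains kept direction in all 105 recomputations, which used shares of read counts or left out 1 library. The groups did not overlap in any of these shares, so leaving out a library could not turn a direction. LAMA3 in OGT_KO against NC, not called, changed sign with DESeq2 (-0.0050), RLE factors (-0.0051), the replicate block (-8.15e-05), length adjustment (-0.22) and length adjustment without TR11B_KO replicate 2 (-0.22). Its sign also changed without NC replicate 1 (-0.04), NC replicate 3 (-0.0029) or OGT_KO replicate 2 (-0.13), and its highest value in any alternative was 0.13. LAMC1 between the knockouts changed sign with length adjustment (-0.15, and -0.28 without TR11B_KO replicate 2 too). Genes called in OGT_KO against NC numbered 2303, but 5095 in a fit of those 2 groups, 4443 with length adjustment without TR11B_KO replicate 2 and 1072 to 4536 with a library left out. In TR11B_KO against NC they numbered 3469, but 2251 in the 2-group fit and 1813 to 4463 with a library left out, and between the knockouts 4174 and 2401 to 5307. Of the laminin chains, 3 to 5, 2 to 6 and 4 to 5 were called in these comparisons with a library left out; the lowest count in TR11B_KO came without NC replicate 1 or 2 and the highest without TR11B_KO replicate 1. On log2(FPKM + 1) with no filter, limma called 2 chains in TR11B_KO. On log2(FPKM + 1) with the filter, 65.1%, 38.0% and 72.6% of called genes were higher. Same-numbered libraries did not deviate together (correlations from -0.199 to 0.0687, and the own number best in 4 of 18 cases), so the numbers were not taken as pairs; with the replicate block 1609, 2612 and 3403 genes and 3, 4 and 5 chains were called, LAMB2 in OGT_KO against NC being lost (-0.64, adjusted p = 0.0742). Depth limits LAMA1 and LAMA2, which had at most 12 reads in a library.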
